A study of Homo sapiens with 62 samples.

Results

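Ribosomal protein pseudogenes were followed in 20 RNA-seq libraries of GM12878, a human B-lymphoblastoid cell line immortalised with Epstein-Barr virus. Rows were taken by name (RPL or RPS, a number, an optional A or X, then P and a number) when their status was OK in every file and their mean over the 20 libraries was at least 1 FPKM (fragments per kilobase of transcript and per M mapped fragments, with M for mega). Of 55040 rows, 488 carried such a name, 393 were OK in every file and 74 passed the mean. The members were thus chosen by their mean FPKM over these libraries, and their levels below are a description. The 74 pseudogenes belong to 32 parent genes, meaning the ribosomal protein genes whose symbol they carry. The series holds 62 samples, of which 42 were not analysed here.

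Each of the 20 libraries is one part of a pool of 10 cells that was lysed, divided into 10 parts and amplified to cDNA as if each part were a single cell. The numbered set holds 10 libraries titled as splits 1 to 10. The unnumbered set holds 10 libraries whose titles carry no split number, and they are called here by their library numbers, 232, 233 and 246 to 253. The titles of 9 unnumbered libraries, all but split 247, mark the record as superseded by another series, which was not used here, and 0 numbered titles do. Both sets share the cell line, the SMARTer amplification, the Nextera tagging and the HiSeq 2000 instrument, and no treatment, time or age is given for either. The labels do not say that each set came from 1 pool, so every p-value here is set against the scatter of splits, which may be technical. Numbered splits had a depth, recovered from the confidence bounds, of 11.8 to 20.6 M fragments. Unnumbered splits had 23.3 to 38.7 M, but split 252 had 7.79 M and split 247 only 0.128 M, so values of split 247 rest on very few fragments. All 10 B cell markers checked had a mean above 1 FPKM, with a summed level of 7752 to 12989 FPKM in numbered and 3856 to 6401 FPKM in unnumbered splits. Of 5 T cell markers 2 had a mean above 1 FPKM, with sums up to 151 FPKM in numbered and 5.19 FPKM in unnumbered splits and CD3D at 0 throughout. Of 4 natural killer markers 1 did, with sums up to 92.2 FPKM in numbered and 243 FPKM in unnumbered splits and GNLY at 0. Of 4 monocyte markers 1 did, with sums up to 53.8 FPKM in numbered and 1.65 FPKM in unnumbered splits and CD14 and S100A8 at 0. None of 4 erythroid and 4 fibroblast markers did, and HBB, HBA1, HBA2 and COL1A2 were at 0. The part of these markers in the results below was not tested.

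Ribosomal protein mRNAs are among the most abundant in growing cells, and reverse transcription of such mRNAs by the machinery of LINE elements has left many intronless copies, called processed pseudogenes, across the human genome. Most of these copies have lost the promoter and the reading frame of the parent, while some lie inside introns or near promoters of other genes and are transcribed with them. A young copy can differ from the mRNA of its parent at a few bases only. Reads of 100 bases, as here, then often fit the parent and the copy equally. The sources used here do not say how the authors' processing shared such reads, so FPKM of transcripts made from a near-identical copy and FPKM of parent reads placed on it cannot be told apart in these files.

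Stretches of coding sequence are shown as examples of how copies and parent compare, and need not be typical of a whole copy. They are given on the sense strand from 5′ to 3′ as in GENCODE 29 (GRCh38), in lower case with each base that differs from the parent in capitals. Names are those of the deposited files, and RPL21P28, matched by its identifier, is called RPL21P75 in GENCODE 29. RPL41P1, the most abundant member, is shown because its transcript holds the whole coding sequence of RPL41, stop codon included, without a difference. RPL41 encodes a very short basic peptide of the large subunit.
RPL41P1: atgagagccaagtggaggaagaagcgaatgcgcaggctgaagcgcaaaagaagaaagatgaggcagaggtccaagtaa
RPL41: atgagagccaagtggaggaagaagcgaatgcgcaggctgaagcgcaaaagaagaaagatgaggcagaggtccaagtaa
These bases lie at chr20:21755270-21755347 (plus strand) in RPL41P1, and within chr12:56116788-56117524 (plus strand, with introns between) in RPL41.

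The 4 copies of RPL13A, a large-subunit protein also known to leave the ribosome and act in interferon-dependent control of translation, are shown because their levels fall into 4 steps. The stretch begins at coding base 224 of RPL13A.
RPL13AP5: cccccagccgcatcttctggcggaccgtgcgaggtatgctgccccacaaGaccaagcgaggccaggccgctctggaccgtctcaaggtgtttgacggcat
RPL13AP25: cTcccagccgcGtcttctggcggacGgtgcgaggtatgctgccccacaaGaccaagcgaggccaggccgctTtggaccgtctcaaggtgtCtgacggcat
RPL13AP7: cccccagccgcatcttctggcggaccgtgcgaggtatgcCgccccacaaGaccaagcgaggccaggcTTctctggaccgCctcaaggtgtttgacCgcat
RPL13AP20: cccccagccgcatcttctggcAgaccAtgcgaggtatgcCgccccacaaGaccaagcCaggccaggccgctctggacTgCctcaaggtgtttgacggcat
RPL13A: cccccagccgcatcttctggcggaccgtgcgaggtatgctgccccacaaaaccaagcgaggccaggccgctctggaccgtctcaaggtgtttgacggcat
The stretch lies at chr10:96750511-96750610 (plus strand) in RPL13AP5, chr13:54440993-54441092 (minus) in RPL13AP25, chr21:25362045-25362144 (plus) in RPL13AP7 and chr12:12875722-12875821 (plus) in RPL13AP20. In RPL13A it lies within chr19:49490544-49490845 (plus, with introns between). The copies had 1, 6, 6 and 7 differing bases in this order. Over 612, 612, 613 and 609 aligned positions, gaps included, they had 3, 14, 16 and 20 mismatches in the same order. The stretch shown is thus denser in differences than the aligned copies as a whole.

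Copies of RPL21, another large-subunit protein, are shown from coding base 2 for the 6 members alike in at least 90% of aligned bases. Their mean levels span from 1294 FPKM for RPL21P28 to 1.07 FPKM for RPL21P116.
RPL21P28: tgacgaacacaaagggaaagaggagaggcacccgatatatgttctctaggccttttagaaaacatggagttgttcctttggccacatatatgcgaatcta
RPL21P119: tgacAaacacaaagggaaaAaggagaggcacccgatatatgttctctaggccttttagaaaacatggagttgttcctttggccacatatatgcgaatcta
RPL21P120: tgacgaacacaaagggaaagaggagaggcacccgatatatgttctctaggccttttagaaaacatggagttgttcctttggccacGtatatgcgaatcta
RPL21P3: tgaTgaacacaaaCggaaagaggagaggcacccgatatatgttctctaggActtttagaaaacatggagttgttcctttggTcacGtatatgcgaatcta
RPL21P2: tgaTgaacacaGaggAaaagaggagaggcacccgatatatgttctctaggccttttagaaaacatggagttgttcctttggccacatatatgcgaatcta
RPL21P116: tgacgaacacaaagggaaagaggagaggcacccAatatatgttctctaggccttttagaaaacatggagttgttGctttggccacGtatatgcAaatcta
RPL21: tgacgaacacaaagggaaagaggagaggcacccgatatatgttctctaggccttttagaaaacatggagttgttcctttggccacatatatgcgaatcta
The stretch lies at chr7:20002766-20002865 (plus) in RPL21P28, chr16:9156781-9156880 (minus) in RPL21P119, chr17:21504559-21504658 (plus) in RPL21P120 and chr20:18485266-18485365 (plus) in RPL21P3. It lies at chr20:4060013-4060112 (minus) in RPL21P2, chr15:78863629-78863728 (minus) in RPL21P116 and within chr13:27253778-27254253 (plus, with introns between) in RPL21.

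The levels of the pseudogenes were spread over more than 3 orders of magnitude. The median member had 41.3 FPKM, 10 members had 1171 FPKM or more, 28 had 100 or more and 46 had 10 or more. The 12 highest held 78.1% of the summed mean of 26687 FPKM. After RPL41P1 (3686 FPKM) came RPL3P4 (2736 FPKM), a copy of RPL3, whose protein lies close to the peptidyl transferase centre. RPL18AP3 had 2429, RPL15P3 1931, RPL9P9 1607 and RPL9P8 1512 FPKM. RPS23P8, a copy of the gene for a decoding-centre protein of the small subunit, had 1306 FPKM. RPL21P28, RPL21P119 and RPL13AP5 had 1294, 1281 and 1171 FPKM. Just inside the limit were RPL21P116 at 1.07 FPKM and RPS3AP35 at 1.12 FPKM, and just outside were RPL36AP45 at 0.966 FPKM and RPL36AP41 at 0.829 FPKM.

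The 74 were divided by the number of libraries in which they were found. At least 1 FPKM was found in all 20 libraries for 40 of them, called steady below, and in 6 to 19 libraries for 22. It was found in 5 or fewer for 12, called sporadic below, of which 8 were found in a single library. The bounds of these classes depend in part on split 247, with its 0.128 M fragments. RPL35P5, RPL21P3, RPS18P12, RPS18P9 and RPL10AP6 were listed at 0 there and at 1 FPKM or more in every other library. A mean of 1 FPKM or more was reached in both sets by 60, in the numbered set alone by 12 and in the unnumbered set alone by 2. Of the 319 rows with an OK status but a mean under 1 FPKM, 250 were listed at 0 in all 20 libraries and 13 reached 1 FPKM in some library. A further 93 named rows had status LOWDATA throughout and 2 had status FAIL in 1 library (RPL7AP6 and RPS2P41), and these were not members. Of the LOWDATA rows, 10 carried a mean of 1 FPKM or more, up to 9276 FPKM.

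**Figure D1:**
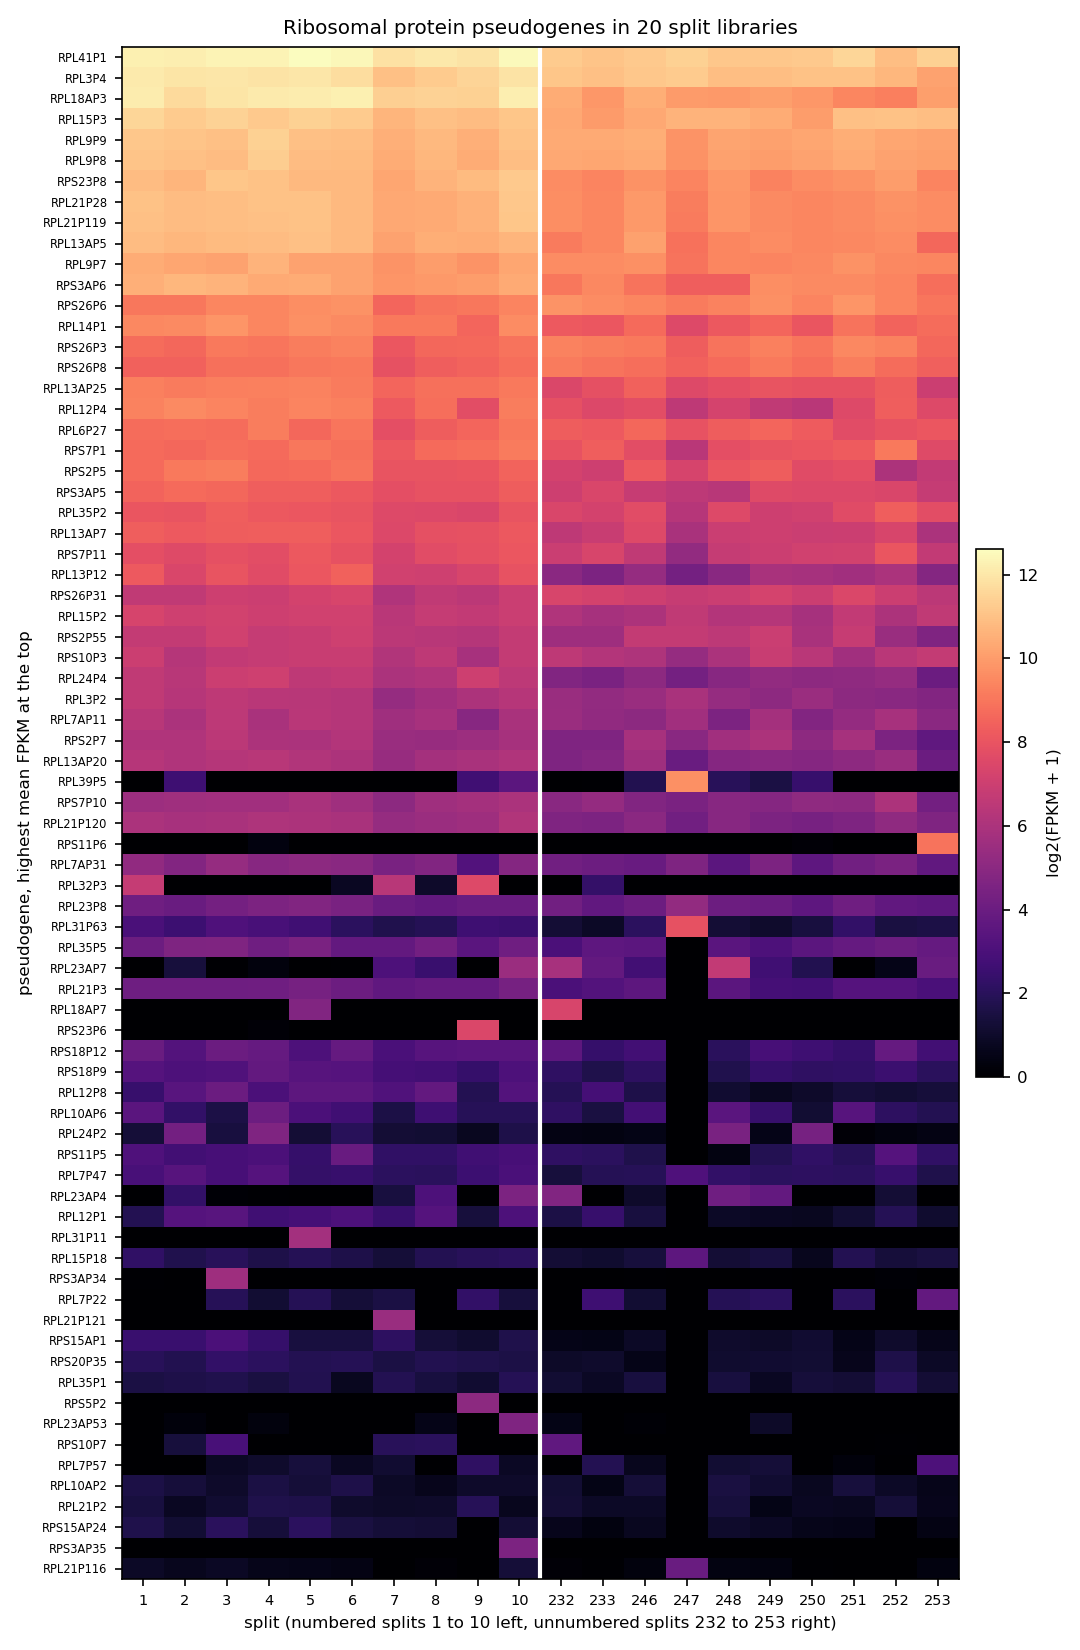
Level of each of the 74 pseudogenes (rows, highest mean at the top) in each library (columns, numbered splits left of the white line and unnumbered splits right of it) as log2(FPKM + 1), the brighter the higher. The upper rows are lit in all 20 libraries, while RPS11P6, RPS23P6 and RPL18AP7 are lit in 1 or 2 libraries only.

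The pseudogenes as a whole were higher in the numbered than in the unnumbered splits. Their summed level was 24139 FPKM at the lowest, 38103 FPKM at the median and 39996 FPKM at the highest in numbered splits, against 16834, 18116 and 20567 FPKM in unnumbered splits. The sets did not overlap. On the log2 scale the sum averaged 15.07 ± 0.265 in numbered and 14.16 ± 0.101 in unnumbered splits (SD, n = 10 each), a difference of 0.91 (2-sided permutation test, p = 2e-05, the smallest that 100000 resamples can give). After rescaling each library to the same total (TPM) the difference was 0.67. The experiment numbers of the labels fall into runs a and b within the numbered set and runs c and d within the unnumbered set, so run and set cannot be told apart. Run a (splits 5 to 8) against run b gave -0.20 for the log2 sum (exact permutation test, p = 0.276). The summed level of the parents was 145989 ± 24906 FPKM in numbered and 73021 ± 6224 FPKM in unnumbered splits (SD, n = 10 each). The share of the pseudogenes in the sum of pseudogenes and parents was 19.4 ± 0.53% in numbered and 20.1 ± 1.08% in unnumbered splits (SD, n = 10 each), a difference of -0.785 percentage points (permutation test, p = 0.0502). That difference missed the threshold of 0.05, and its p ranged from 0.0201 to 0.1 when single libraries were left out. It passed without numbered split 1, 5 or 9 and without split 249, 252 or 253. Without splits 9, 247 and 253 the difference was -1.07 points (permutation test, p = 0.0145), and with RPL41P1 left out of the sums it was -0.889 points (permutation test, p = 0.0304). With runs b, c and d alone the difference in share was -0.610 points (exact permutation test, p = 0.211).

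The number of pseudogenes at 1 FPKM or more per library was 60.1 ± 1.79 in numbered and 54.3 ± 4.11 in unnumbered splits (SD, n = 10 each). This is a description with no test, since the same threshold chose the members and 12 of them passed it in the numbered set only, against 2 in the unnumbered set only. Over all genes the number at 1 FPKM or more was 5357 ± 1085 in numbered and 4328 ± 533 in unnumbered splits. Split 247, the shallowest library, had 44 of the pseudogenes. At 10 FPKM or more the number of pseudogenes was 43.9 ± 1.45 in numbered and 41.9 ± 1.73 in unnumbered splits. Counting only those whose lower confidence bound lay above 0 gave 59.5 ± 1.96 in numbered and 53.6 ± 11.1 in unnumbered splits. The medians of this count were 60 in numbered and 58 in unnumbered splits, and split 247 had 24.

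**Figure D2:**
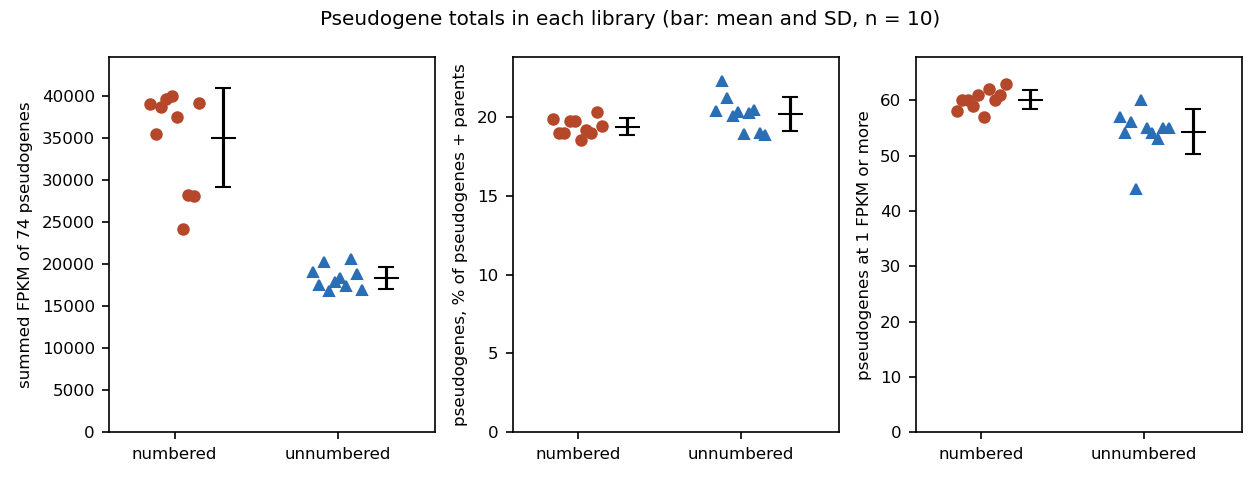
Summed FPKM of the 74 pseudogenes, their share of the summed FPKM of pseudogenes and parents, and the number at 1 FPKM or more, in each numbered (circles) and unnumbered (triangles) split, with the mean and SD over 10 libraries as black bars. The sums do not overlap between the sets, while the shares all lie between 18.5 and 22.2%.

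Gene by gene, 20 of the 74 pseudogenes were higher in the numbered set and 0 were lower, by limma on log2(FPKM + 1) at an adjusted p of 0.05 or less. Over all 10506 rows tested, 3.93% were higher and 1.38% lower. All 20 lay among the 40 steady pseudogenes. None of the other 54 was lower even at an unadjusted p under 0.05, and 27 in all were higher at that level. The share of all rows at that unadjusted level was not computed, so the 27 are a description. An exact rank-sum test called 39 of the pseudogenes, all higher and among them the 20, where it called 8.95% of all rows. Of the 74, 12 reached a mean of 1 FPKM in the numbered set only, against 2 in the unnumbered set only. That choice of members favours higher values in these counts and in the median below. RPS15AP1, RPS20P35 and RPS15AP24, called by the rank-sum test, are among these 12, while none of the 20 is. The median difference was 0.70 for the 74 pseudogenes, 0.87 for their 32 parents (26 higher, 0 lower), 1.08 for 82 cytosolic ribosomal protein genes (70 higher, 0 lower), 0.47 for 49 pseudogenes of other abundant genes (10 higher, 2 lower) and 0.35 for all rows. With size factors, which bring the median of all rows to 0.24, limma called 12 of the 20. The 8 that then missed the threshold were RPL9P7, RPL9P8, RPL9P9, RPL13AP7, RPL14P1, RPL15P3, RPS2P5 and RPS3AP5.

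RPL18AP3 had the smallest p. It had 2654 FPKM at the lowest, 4177 at the median and 4907 at the highest in numbered splits, against 595, 1004 and 1431 FPKM in unnumbered splits. The sets lay far apart. The log2 difference was 1.93 ± 0.17 (SE, limma adjusted p = 2.97e-08). RPL41P1 had 3638, 5043 and 6279 FPKM in numbered splits, against 1901, 2399 and 3043 FPKM in unnumbered splits (lowest, median and highest). The log2 difference was 1.01 ± 0.11 (limma adjusted p = 3.93e-07), beside 0.96 for RPL41.

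RPL13P12 differed most among the 20. It had 132, 226 and 345 FPKM in numbered splits, against 18.6, 35.3 and 62.1 FPKM in unnumbered splits (lowest, median and highest), again without overlap. The log2 difference was 2.50 ± 0.44 (limma adjusted p = 0.000389), beside 2.70 for RPL13, which itself had 2477 ± 893 FPKM in numbered splits and 380 ± 135 FPKM in unnumbered splits (SD, n = 10 each). The other pseudogenes of smallest p were RPS23P8, RPL21P28, RPL21P119, RPL13AP5 and RPS3AP6, whose log2 differences ran from 1.20 to 1.30 with limma adjusted p of at most 0.000497. RPS3AP6 copies RPS3A, a small-subunit protein, and had 1289 ± 255 FPKM in numbered splits and 579 ± 181 FPKM in unnumbered splits (SD, n = 10 each).

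The sets did not overlap for 16 of the 74 pseudogenes, each with the numbered splits higher, where 1.65% of all rows showed this. These were RPL41P1, RPL18AP3, RPL9P9, RPL9P8, RPL9P7, RPS23P8, RPL21P28, RPL21P119, RPL13AP5, RPL13AP25, RPS3AP6, RPS3AP5, RPL13P12 and RPL24P4, which passed the limma threshold, and RPL21P120 and RPL21P3, which did not.

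The copies of RPS26, a small-subunit protein that contacts mRNA near the exit channel, stood on the other side. RPS26P6 had 369, 597 and 851 FPKM in numbered splits, against 509, 686 and 913 FPKM in unnumbered splits (lowest, median and highest). The sets overlapped, and the log2 difference of -0.24 ± 0.21 did not pass (limma adjusted p = 0.603). RPS26P3, RPS26P8 and RPS26P31 differed by -0.23, -0.20 and -0.26, also short of the threshold, beside -0.20 for RPS26. RPS26 had 409, 650 and 944 FPKM in numbered splits, against 542, 721 and 988 FPKM in unnumbered splits (lowest, median and highest). RPS26 and its 4 copies thus shared the sign of the difference, which was opposite to that of the 20. The copies were alike to RPS26 in 98.3 to 99.7% of aligned bases, so these differences cannot be counted as separate observations.

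**Figure D3:**
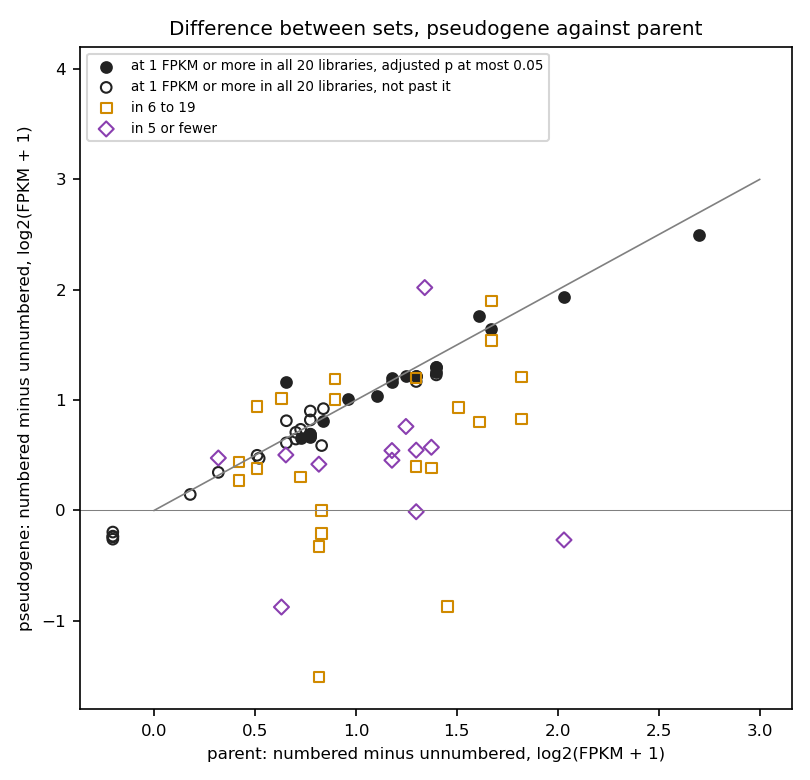
Difference between the numbered and unnumbered means in log2(FPKM + 1) of each pseudogene (vertical) against that of its parent (horizontal), with the line of equal difference in grey. Filled black circles passed the limma threshold, open black circles are the other pseudogenes found in all 20 libraries, and squares and diamonds are those found in fewer. The black circles follow the line from -0.26 for RPS26P31 to 2.50 for RPL13P12, and most squares and diamonds lie below it.

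Measured against its parent in the same library, most steady pseudogenes differed little between the sets. For the 40 steady pseudogenes the log2 ratio to the parent differed by -0.04 at the median, and 39 of them stayed within 0.3 of 0 in either direction. In 1 fit per parent over all rows, limma called 1 of the 74 lower in the numbered set relative to its parent and 0 higher. Over the rows of all 32 such fits, 12.3% were lower and 1.56% higher. The values of the 1 called are not reported here. With a pseudocount of 0.1 in place of 1 the fit called 0 of the 74, and with a pseudocount of 10 it called 22, all lower, where 42.1% of the rows of those fits were lower.

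The log2 ratio to the parent was also compared between the sets with a permutation test of 100000 resamples, not adjusted over the 74 pseudogenes. A permutation p under 0.05 was reached by 23 of the 74, of which 21 were lower in the numbered set and 2 higher. The 2 higher were RPS2P5 and RPL41P1. The same share over all rows was not computed. The scale of log2(FPKM + 1) understates changes of low genes. A low copy of a parent that is higher in the numbered set thus tends to a negative ratio difference. The split of 21 to 2 is therefore not read as a direction of the pseudogenes. RPS2P5, a copy of the gene for the small-subunit protein RPS2, was the steady pseudogene that departed most from its parent. It had 257, 404 and 583 FPKM in numbered splits, against 64.0, 179 and 311 FPKM in unnumbered splits (lowest, median and highest). In percent of RPS2 this was 16.8 to 26.4% in numbered splits, against 8.01 to 19.2% in unnumbered splits. The ranges of the ratio overlapped only between 16.8 and 19.2%. The relative log2 difference was 0.50 ± 0.36 (SE), with a permutation p of 0.00023 and a limma adjusted p of 0.505. Between the sets RPS2P5 was 1.16 ± 0.35 higher (limma adjusted p = 0.0496), which missed the threshold once run a entered the fit (limma adjusted p = 0.0911). RPL13AP7 and RPS3AP5 also missed it in that fit, which called 17 of the 20.

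The ratio of RPL41P1 to RPL41 shows how small such differences could be. It was 95.9, 98.9 and 101.2% in numbered splits, against 84.4, 97.2 and 99.3% in unnumbered splits (lowest, median and highest), a relative log2 difference of 0.05 (permutation p = 0.0194, limma adjusted p = 0.706).

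Most steady pseudogenes also followed the parent from split to split. The sets were treated apart, over 10 libraries each, on log2(FPKM + 1). Pearson's r with the parent had a median of 0.975 in the numbered set (range 0.766 to 0.998) and 0.932 in the unnumbered set (range 0.455 to 0.994). Median Spearman's rho was 0.933 over numbered and 0.915 over unnumbered splits. Without the 2 libraries farthest from the median of the parent, median r was 0.932 over numbered and 0.865 over unnumbered splits. The permutation p, not adjusted over the 40, was under 0.05 for 40 pseudogenes over numbered splits and 39 over unnumbered splits. The exception was RPL7P47, with r = 0.455 (permutation p = 0.191) and rho = 0.430 (permutation p = 0.219) with RPL7 in the unnumbered set (n = 10). The share of all rows, or of other ribosomal protein genes, that would pass this level was not computed. The median r of all rows tested with these parents was -0.016 over numbered and 0.078 over unnumbered splits.

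Other ribosomal protein genes moved with the pseudogenes too, but less closely. The median r of a steady pseudogene with ribosomal protein genes other than its parent was 0.689 over numbered and 0.174 over unnumbered splits. Ranked among 82 ribosomal protein genes by r, the parent came first for 34 of the 40 in the numbered set and for 37 in the unnumbered set. The 34 other pseudogenes had a median r with the parent of 0.330 in the numbered set, and the 29 of them that varied in the unnumbered set had 0.337. The parent came first for 1 of them over numbered and 2 over unnumbered splits. Among the 34 are RPL35P5, RPL21P3, RPS18P12, RPS18P9 and RPL10AP6, which fell short of the steady class through split 247 alone. RPL41P1 had r of 0.995 with RPL41 in the numbered set (rho = 1, permutation p = 2e-05 for both, the smallest possible, n = 10). In the unnumbered set r was 0.927 (rho = 0.976, permutation p = 8e-05 for r and 7e-05 for rho, n = 10). Members share the libraries and their depth, so these 40 correlations are not independent.

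The spread of the ratio was small beside the spread of ratios between parents. The SD over 10 libraries of the log2 ratio of a steady pseudogene to its parent had a median of 0.0734 over numbered and 0.164 over unnumbered splits. The same SD between pairs of the 32 parents (496 pairs) had a median of 0.263 over numbered and 0.534 over unnumbered splits. The levels themselves varied about as much as those of the parents. Their coefficient of variation had a median of 0.202 in numbered and 0.280 in unnumbered splits, beside 0.204 in numbered and 0.240 in unnumbered splits for the 22 parents of these 40. Over all rows tested it was 1.73 in numbered and 1.98 in unnumbered splits. Those rows are an unlike set, since they needed only a mean of 1 FPKM. The steady pseudogenes were chosen for 1 FPKM or more in all 20 libraries, which favours a low coefficient.

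Within families the proportions of the copies were compared library by library. RPL9, a large-subunit protein gene, was listed below 2 of its copies: RPL9P9 had a mean of 157% and RPL9P8 of 148% of the FPKM of RPL9. RPL9P9 had 1471, 1985 and 2673 FPKM in numbered splits, against 888, 1235 and 1429 FPKM in unnumbered splits, where RPL9 had 971, 1260 and 1721 FPKM in numbered splits and 468, 792 and 900 FPKM in unnumbered splits (lowest, median and highest). RPL9P8 stood at 93.6 to 95.2% of RPL9P9 in numbered and 93.3 to 94.8% in unnumbered splits. RPL9P7 stood at 57.9 to 59.97% of RPL9P9 in numbered and 55.4 to 59.3% in unnumbered splits. No other pseudogene had a higher mean than its parent.

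The copies of RPL13A showed 4 levels. RPL13AP5 had 1654 ± 259 FPKM in numbered and 688 ± 198 FPKM in unnumbered splits (SD, n = 10 each, here and for the other copies). RPL13AP25 had 548 ± 87.8 FPKM in numbered and 235 ± 65.8 FPKM in unnumbered splits. RPL13AP7 had 280 ± 49.7 FPKM in numbered and 118 ± 39.7 FPKM in unnumbered splits. Each copy thus lay below the one before it in both sets. RPL13AP20 had 66.8 ± 12.6 FPKM in numbered and 29.2 ± 10.8 FPKM in unnumbered splits. RPL13A itself had 3372 ± 548 FPKM in numbered and 1310 ± 373 FPKM in unnumbered splits. In percent of RPL13A the means of the copies were 50.01, 16.7, 8.50 and 2.05%, while their mismatches to RPL13A over the aligned transcript numbered 3, 14, 16 and 20 in the same order of copies. RPL13AP7 stayed between 48.4 and 53.1% of RPL13AP25 in numbered splits, and between 32.5 and 53.2% in unnumbered splits.

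In the RPL21 family RPL21P28 and RPL21P119, with 1 and 3 mismatches, had 93.8 and 92.8% of the mean FPKM of RPL21. RPL21P119 stayed within 97.9 to 99.5% of RPL21P28 in numbered splits and 96.2 to 100.7% in unnumbered splits. RPL21P120 had 12 mismatches and 2.99% of RPL21, and RPL21P3 had 21 mismatches and 0.849%. RPL21P2 and RPL21P116, with 24 and 20 mismatches, had 0.0855 and 0.0774%. RPL21P121, with 63 mismatches, was found in numbered split 7 alone, at 43.2 FPKM.

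**Figure D4:**
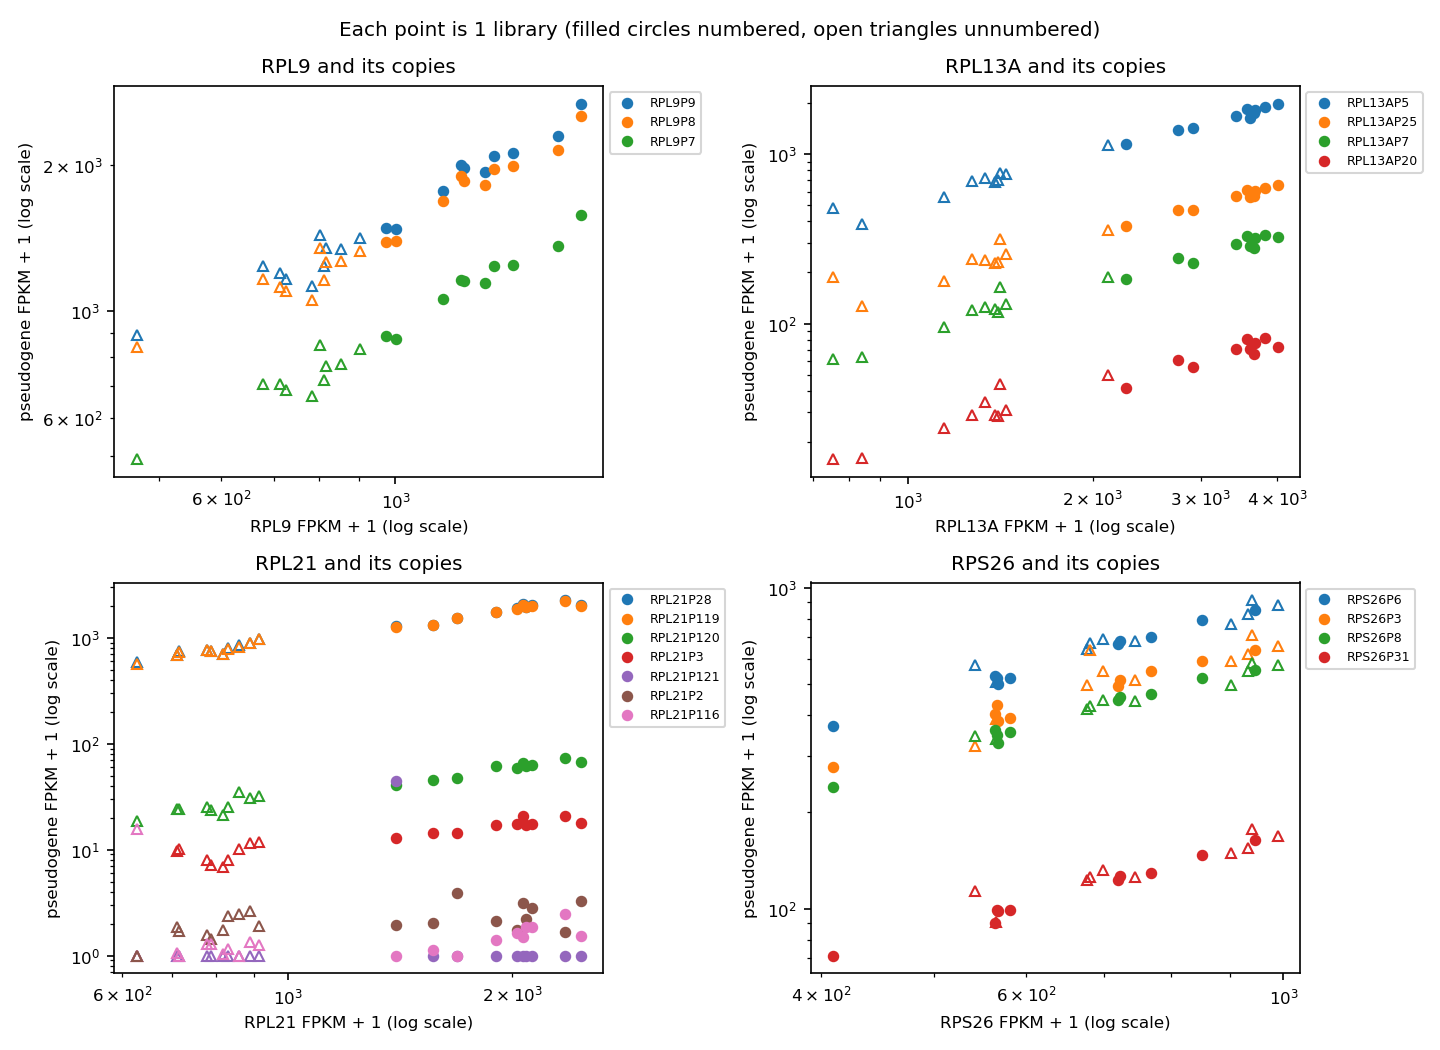
FPKM + 1 of each copy (vertical, log scale) against FPKM + 1 of its parent (horizontal, log scale) for RPL9, RPL13A, RPL21 and RPS26, 1 point per library, with numbered splits as filled circles and unnumbered splits as open triangles. The abundant copies form parallel lines, such as RPL13AP5 near 50.01% and RPL13AP20 near 2.05% of RPL13A, while RPL21P121 lies on the floor but for 1 library.

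Likeness to the parent ordered the levels. Transcripts of 73 of the 74 pseudogenes were found in GENCODE 29, 1 of them by symbol alone, and 72 were long enough for 100-base windows. Each window was compared with all transcripts of the parent. The share of windows with at most 2 mismatches, the identity over the aligned part and the share of windows with an exact match had Spearman correlations of 0.7995, 0.787 and 0.914 with the mean FPKM over these 72 pseudogenes, as a description across genes. For the 40 steady pseudogenes, of which 39 could be aligned, the median identity was 98.7%. It was 95.7% for the 22 found in 6 to 19 libraries, 91.1% for the 12 found in 5 or fewer and 87.9% for 249 of the 250 rows at 0 in all 20 libraries. The part of read placement in these levels was not tested.

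Counted over all OK rows with a matched transcript, 28 rows had at least 50% of their windows within 2 mismatches of the parent. All 28 were members, 27 of them in all 20 libraries, with a median of 413 FPKM. Of 18 rows with 20 to 50% of such windows, 18 were members and 8 were found in all 20 libraries, with a median of 12.6 FPKM. Of 50 rows with a share above 0 and under 20%, 13 were members, 3 were found in all 20 libraries and 2 were at 0 throughout. Of 294 rows with no such window, 13 were members, 0 were found in all 20 libraries and 247 were at 0 throughout. The spread of the ratio followed the same order: the share within 2 mismatches had a Spearman correlation of -0.822 with the SD of the log2 ratio in the numbered set and of -0.680 in the unnumbered set. The mean FPKM also rose with likeness over the same pseudogenes, so level and likeness cannot be told apart in this spread.

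**Figure D5:**
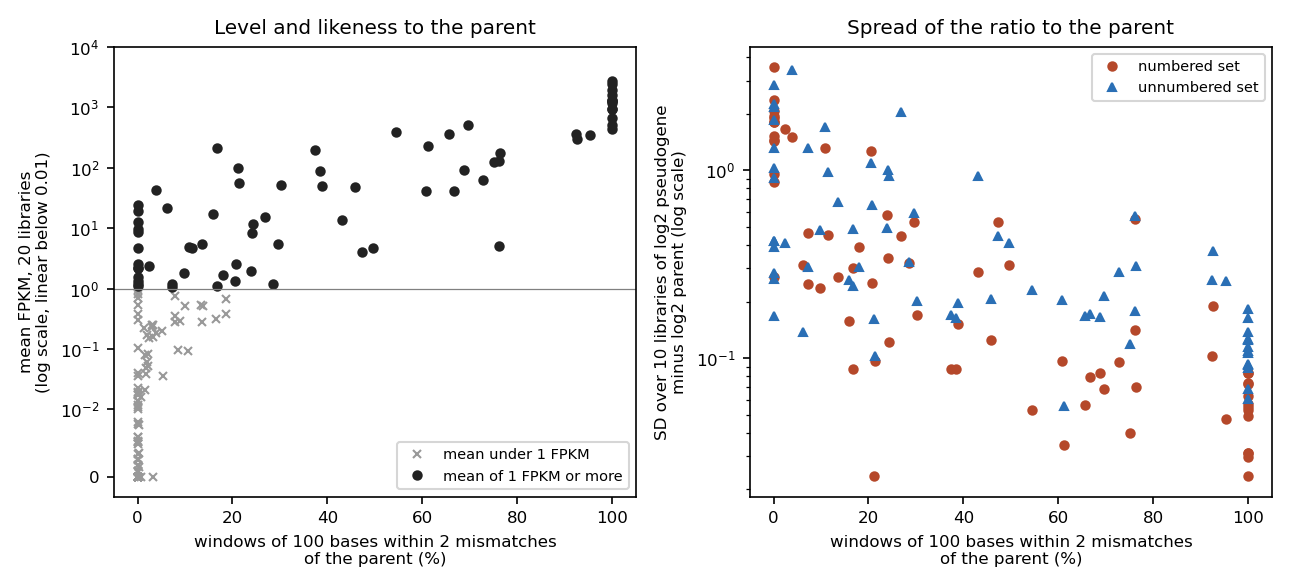
Left, mean FPKM over 20 libraries (log scale, linear below 0.01) against the percent of 100-base windows within 2 mismatches of the parent, for pseudogenes with a mean of 1 FPKM or more (circles) and under it (crosses). Right, SD over 10 libraries of the log2 ratio to the parent (log scale) against the same percent, in the numbered (circles) and unnumbered (triangles) set. The 28 rows at 50% or more all lie above 1 FPKM.

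Some copies of middling likeness were found in all 20 libraries at a low share of the parent, and 4 of these, chosen after their values were seen, are described. RPL15P2, with 37 mismatches and 21.1% of windows within 2 mismatches of RPL15, had 126 ± 21.8 FPKM in numbered and 75.7 ± 17.1 FPKM in unnumbered splits (SD, n = 10 each), near 2.60% of RPL15. Its log2 ratio to RPL15 had an SD of 0.0237 over numbered and 0.161 over unnumbered splits. RPL3P2, with 53 mismatches, had 1.24% of RPL3. RPL7AP31, with 47 mismatches, had 1.18% of RPL7A, and RPL23P8, with 25, had 0.348% of RPL23.

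The sporadic pseudogenes behaved otherwise: 8 of the 12 found in 5 or fewer libraries reached 1 FPKM in a single one. RPS11P6, with 3 spliced transcripts in the annotation, had 487 FPKM in unnumbered split 253, and its next highest value was 0.273 FPKM. RPS23P6 had 174 FPKM in numbered split 9 and at most 0.119 FPKM elsewhere. RPS23P6 lies in an intron of SNX29 on the same strand, and SNX29 had 251 FPKM in split 9, its highest library, against a median of 0.935 FPKM in the other 19. SNX29 also reached 235 FPKM in another library, where RPS23P6 had at most 0.119 FPKM. RPL32P3, with 8 spliced transcripts, had 109, 83.3 and 191 FPKM in numbered splits 1, 7 and 9 and at most 4.11 FPKM in the other 17 libraries. RPL31P11, RPS3AP34, RPL21P121, RPS5P2, RPL23AP53 and RPS3AP35 were each at 1 FPKM or more in 1 numbered split, at 22.4 to 52.0 FPKM, and below 1 FPKM in the other 19.

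RPL18AP7 was found in numbered split 5 at 25.3 FPKM and in split 232 at 166 FPKM, and was listed at 0 in the other 18 libraries. EXOG, whose intron holds it on the opposite strand, had 0.207 FPKM in split 232, where the copy had 166 FPKM, and up to 132 FPKM elsewhere. TOP3A, whose intron holds RPL21P121 on the opposite strand, had 0.430 FPKM in split 7, where the copy had 43.2 FPKM. MRPS6, a mitochondrial ribosomal protein gene whose intron holds RPS5P2 on the opposite strand, had 130 FPKM in split 9 against a median of 58.1 FPKM in the others. Split 9 ranked 6 among the libraries for MRPS6. The part of SNX29, EXOG, TOP3A and MRPS6 in the levels of these copies was not tested. Of the 12 pseudogenes found in 5 or fewer libraries, 6 had a spliced transcript in the annotation, beside 2 of the 39 steady ones annotated and 4 of the 22 between.

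Some pseudogenes rested on split 247, with its 0.128 M fragments. RPL39P5, a copy of RPL39, whose protein lines the peptide exit tunnel, had 827 FPKM there, or 232% of RPL39, and at most 10.4 FPKM in the other 19 libraries. Its log2 difference between the sets was -0.87 with split 247 and 0.01 without it, and neither passed (limma adjusted p = 0.641 with it and 0.994 without it). RPL31P63, a copy of RPL31, had 243 FPKM in split 247 and at most 7.86 FPKM elsewhere. RPL21P116 had 14.5 FPKM in split 247 and at most 1.49 FPKM elsewhere, so its mean over 20 libraries passed 1 FPKM through that split. RPL35P5, a copy of RPL35, was listed at 0 in split 247 and at 7.27 FPKM or more in the other 19 libraries.

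RPL23AP7, a copy of RPL23A, whose protein lies where nascent chains leave the ribosome, was at 1 FPKM or more in 4 numbered and 7 unnumbered splits. It had a median of 0.144 FPKM and a highest value of 44.0 FPKM in numbered splits, against a median of 5.52 FPKM and a highest value of 99.8 FPKM in unnumbered splits. The sets overlapped, and the log2 difference of -1.51 ± 0.96 (SE) did not pass (limma adjusted p = 0.460).

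The pseudogenes with the smallest relative p on the higher side, apart from RPL41P1 and RPS2P5, did not pass either. RPL35P5 had a relative log2 difference of 0.43 (limma adjusted p = 0.801) and RPL32P3 of 0.68 (limma adjusted p = 0.686). On the lower side, among those reported here, RPL21P116 had -1.31 (limma adjusted p = 0.0588, permutation p = 4e-05). Without split 247 RPL21P116 had -0.90, and limma called 2 of the 74 lower in that setting. RPL23AP7 had -2.33 (limma adjusted p = 0.164, permutation p = 0.028) and RPL39P5 -2.32 (limma adjusted p = 0.138, permutation p = 0.0257). RPL21P2 had -0.90 (limma adjusted p = 0.146, permutation p = 0.00016). These permutation p-values are not adjusted. RPL21P2 and RPL21P116 had means of 1.18 and 1.07 FPKM, near the pseudocount of 1, which compresses their changes beside those of RPL21. RPL21P116 was also a member only through split 247. The part of the pseudocount in these p-values was not tested.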

How the data were processed

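Picked GM12878 cells were pooled, lysed and amplified with a SMARTer kit, per the labels' protocols. Per the submitters' processing notes, TopHat 1.4.1 and Cufflinks 2.0.2 were used by the authors, whose deposited files give FPKM with bounds. The sources used here give neither their genome build nor the sharing of reads between alike genes. FPKM holds no counts, so depth was estimated from the bounds of 10 mitochondrial genes (largest residual 0.963%). Rows never FAIL and not LOWDATA throughout, with a mean of at least 1 FPKM, were tested with limma 3.58.1 (trend) on log2(FPKM + 1) with Benjamini-Hochberg adjustment over 10506 rows. This scale understates changes of low genes. Fits relative to a parent subtracted its log2 value in each library. Values per library were compared with 2-sided permutation tests. Sequences came from GENCODE 29 and were aligned with Biopython 1.88, and deposited coordinates were not mixed with them. The labels' experiment numbers fall into 4 runs: splits 5 to 8 (a), the rest of the numbered set (b), splits 232 and 233 (c), and the rest of the unnumbered set (d).

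The members, lists and tests were chosen with earlier results of these data known. Named pseudogenes were the 10 of highest mean, up to 8 of smallest p between sets and 5 relative to the parent in each direction, the 5 highest relative to the parent, those nearest the limit of 1 FPKM, and all parents of these. Others were named after their values were seen. Results that rest on 2 of the parent genes by name are not reported here.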

Additional observations from a re-analysis of the deposited data

Results flagged for a closer look

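A library was set apart when its gap to the nearest other library of its set of 10 passed Dixon's limit. Of 50 sets of values checked, 11 were flagged. Chance flags about 1 in 20 sets only where values are normally distributed. Where the other 9 splits were at 0, as for RPL18AP7 and RPS3AP35, any value above 0 passes the limit. RPL21P116 and RPS3AP35 are also members only through the library set apart, so these flags are a description. Split 247 had 44 pseudogenes at 1 FPKM or more, against 53 to 60 in the other unnumbered splits. It was also lowest for RPL9P9 (888 FPKM, against 1122 to 1429 FPKM), RPL9P8 (841 FPKM, against 1052 to 1345 FPKM) and RPL35P5 (0 FPKM, against 7.27 to 15.6 FPKM), and highest for RPL21P116 (14.5 FPKM, against at most 0.346 FPKM) and RPL39P5 (827 FPKM, against at most 4.36 FPKM). It is the library with 0.128 M fragments. Split 253 was lowest for RPL3P4 (1139 FPKM, against 1706 to 2474 FPKM), split 233 highest for RPL32P3 (4.11 FPKM, against at most 0.0228 FPKM) and split 232 highest for RPL18AP7 (166 FPKM, against 0 FPKM). In the numbered set, split 5 was highest for RPL18AP7 (25.3 FPKM) and split 10 for RPS3AP35 (22.4 FPKM), with 0 FPKM in the other 9 splits in both cases.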

How the results depend on the processing

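Of 20 pseudogenes called between the sets, 12 were called with size factors and 16 after rescaling to TPM, 17 with run a in the fit (RPL13AP7, RPS2P5 and RPS3AP5 missed), and the exact rank-sum test called 39. The splits of all calls were then 327 higher and 199 lower with size factors and 345 higher and 217 lower with TPM, against 413 and 145. With no filter on low values 29 were called, among them the 20. The others include RPS15AP1 and RPS20P35, which reached a mean of 1 FPKM in the numbered set only. Leaving out single libraries gave 19 to 24, and RPS2P5 was the only one of the 20 lost, without numbered split 2, numbered split 3 or split 253. Relative to the parent, 1 was called. This became 0 with a pseudocount of 0.1, 22 with a pseudocount of 10, 3 in runs b, c and d alone, 2 without split 247, 3 without splits 9, 247 and 253, and 1 to 2 without single libraries. The difference in family share of -0.785 points was -1.07 without splits 9, 247 and 253, -0.889 without RPL41P1 (permutation p = 0.0304), and -0.932 to -0.551 without single libraries. With runs b, c and d alone it was -0.610 points (exact permutation p = 0.211). The difference in mean pseudogenes per library, 5.8, was 5.9 when a lower bound above 0 was required and 2.0 at 10 FPKM or more. With the lower bound required, the medians were 60 in numbered and 58 in unnumbered splits, and split 247 had 24. These signs turned on the log2 scale: RPL21P116 between sets was 0.46 with a pseudocount of 0.1, 0.16 with run a in the fit and also in runs b, c and d alone, 0.36 without split 247 and 0.45 without splits 9, 247 and 253, against -0.01. RPL39P5 was 0.0113 without split 247, against -0.87. Relative to the parent, with run a in the fit and in runs b, c and d alone, RPL3P4 was 0.0148 and RPS23P8 0.0126. RPS3AP6 was -0.00972 without split 247 and -0.0194 without splits 9, 247 and 253. With a pseudocount of 10, RPL35P5 was -0.0400 and RPL32P3 -0.25. None of these turned values passed the threshold under the main setting, and the cause was not tested. Depth limits split 247 most. No paired analysis was possible because the numbered and unnumbered splits share no replicate numbers.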
